A study of Mus musculus with 12 samples.

Results

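The genes described are 9 genes of the lipid droplet and of lipolysis, the stepwise release of fatty acids from stored fat, in wounded skin of diabetic mice. They are Plin1, Plin2, Plin4, Cidec, Pnpla2, Lipe, Hcar1, G0s2 and Adrb3. They were taken as a fixed list of droplet coat, lipase and lipolysis receptor genes, and make up 9 of the 24062 genes in the count tables. The list was chosen with earlier results of these data known. The shares of all genes given beside counts of members are therefore a description and not a test of the list. All 9 had enough reads to be tested. The study took wounds from the back skin of C57BL/6 mice in which diabetes had been induced with streptozotocin, and sequenced 12 mice with 1 library each. The mice form 4 treatment groups of 3: post-MCS-01, pre-MCS-01, DSCG and blank. The streptozotocin diabetes and the wound are shared by every group, blank included, so no comparison here is with healthy or unwounded skin. MCS-01 is a mast cell stabilizer known here by its code name. DSCG usually stands for disodium cromoglycate (cromolyn), a long-used stabilizer of mast cells. Blank is read as the untreated control, which the labels do not spell out. They give no dose, no time and no age, and do not define pre and post. A streptozotocin mouse models the loss of insulin-producing cells.

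Fat is stored as triglyceride in lipid droplets, whose surface carries proteins of the perilipin family. In adipocytes, catecholamines acting on beta-adrenergic receptors raise cyclic AMP, perilipin 1 is phosphorylated, and the triglyceride lipase ATGL and the hormone-sensitive lipase HSL cut the fat step by step, while insulin holds this process back. Dermal white adipose tissue lies under the dermis of mouse skin, borders wounds and takes part in their repair.

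The reference sequence just before the transcription start is shown for 3 members whose levels were closely correlated across the libraries, Plin1, Cidec and Hcar1, and for G0s2, whose correlation with them did not pass the threshold. They were chosen after the values were seen. PPAR gamma with its partner RXR, the nuclear receptor pair that drives adipocyte genes, binds a direct repeat of 2 arms with 1 base between them, and each arm was searched as AGGNCA. The windows come from RefSeq (GRCm38.p6). They run 5′ to 3′ on the gene's own strand, which is the minus strand for these 4 genes, and end at the base before the start. A single arm is in capitals, on either strand, and reads TGCCCT where it lies on the other strand.
Plin1, chr7:79732777-79733026: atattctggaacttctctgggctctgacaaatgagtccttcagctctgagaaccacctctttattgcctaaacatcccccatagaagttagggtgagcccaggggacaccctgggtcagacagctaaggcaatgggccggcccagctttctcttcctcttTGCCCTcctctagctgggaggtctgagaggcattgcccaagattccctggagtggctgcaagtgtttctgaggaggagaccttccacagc
Cidec, chr6:113435761-113436010: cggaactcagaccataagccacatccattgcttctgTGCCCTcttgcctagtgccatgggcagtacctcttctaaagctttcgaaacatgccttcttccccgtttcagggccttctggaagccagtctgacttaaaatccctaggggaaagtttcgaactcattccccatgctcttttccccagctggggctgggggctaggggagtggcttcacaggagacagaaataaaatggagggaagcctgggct
Hcar1, chr5:123880004-123880253: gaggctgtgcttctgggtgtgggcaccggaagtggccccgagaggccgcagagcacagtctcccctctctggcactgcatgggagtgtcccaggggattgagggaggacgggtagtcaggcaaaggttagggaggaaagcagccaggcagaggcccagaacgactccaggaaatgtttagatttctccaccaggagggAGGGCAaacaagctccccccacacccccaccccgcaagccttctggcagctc
G0s2, chr1:193273189-193273438: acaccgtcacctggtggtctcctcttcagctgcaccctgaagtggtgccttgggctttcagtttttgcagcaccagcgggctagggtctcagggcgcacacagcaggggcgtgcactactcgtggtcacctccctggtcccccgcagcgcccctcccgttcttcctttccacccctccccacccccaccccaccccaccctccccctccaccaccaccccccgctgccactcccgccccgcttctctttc
The arm begins at position -90 from the start in Plin1, at -214 in Cidec and at -52 in Hcar1, and these letters are not in the G0s2 window. Of all 10 windows of the members, 6 held the arm (Plin1, Plin2, Hcar1, both of Lipe and the Cidec window shown), and 4 did not (Plin4, Pnpla2, G0s2 and the second window of Cidec, chr6:113434765-113435014). Pnpla2, without the arm, was correlated with Plin1 (r = 0.89) and Cidec (r = 0.9), whereas the correlations of Plin2, with 2 matches, did not pass (r = 0.37 and 0.3). The full repeat was searched on both strands from 250 bases before to 50 after each start. It was in none of the 10 windows that the table holds for 8 of the members (all but Adrb3), and in 125 of 32851 windows of all genes (0.38%). A single arm, which was searched after the full repeat had given no match in the members and overlaps it by construction, was in 51.3% of the 250-base windows of all genes. These matches describe letters in the reference, not binding.

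Gene counts ranged from 3.77e+07 to 5.05e+07 in 11 libraries, and blank replicate 3 held 3.84e+06. Long transcripts were under-represented in DSCG replicate 2, pre-MCS-01 replicate 2 and blank replicate 3, relative to the other libraries. For this, each gene's log2 expression, less its mean over the 12 libraries, was rank correlated with exon length. The correlation was -0.33, -0.385 and -0.32 in these libraries, against -0.0559 to 0.337 in the other 9. The skin label held: the 9 keratinocyte markers in the files summed to 21200 to 79700 CPM (read counts scaled to a common library size with TMM factors) over the 12 libraries. The 13 adipocyte markers summed to 1090 to 3030 CPM, and Adipoq, which encodes the adipocyte hormone adiponectin, had 4.46 to 70.7 CPM. Ucp1, the defining gene of brown fat, had 1 read in all in post-MCS-01, 1 in pre-MCS-01, 2 in DSCG and 1 in blank.

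Per kilobase of annotated exon, the members spanned a wide range of levels. In blank wounds Plin2 had 72.7 ± 14 CPM per kb (SD, n = 3), Pnpla2 62.3 ± 15.1, Cidec 53.9 ± 12.6 and G0s2 27.6 ± 9.38. Lipe had 13.7 ± 2.8 CPM per kb in blank, Plin4 10.7 ± 4.42 and Plin1 9.51 ± 3.28. The receptors were lowest in blank, with 2.45 ± 1.24 CPM per kb for Adrb3 and 1.09 ± 0.385 for Hcar1. Cidec was above G0s2 per kilobase in all 3 DSCG libraries and all 3 blank libraries. In post-MCS-01, Cidec had 21.1, 6.18 and 17 CPM per kb and G0s2 17.5, 55.3 and 15.7, so that Cidec was the higher in 2 of 3 libraries. In pre-MCS-01, Cidec had 17.9, 17.2 and 4.39 CPM per kb and G0s2 50.2, 16.8 and 14.9, and Cidec was the higher in 1 of 3.

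**Figure D1:**
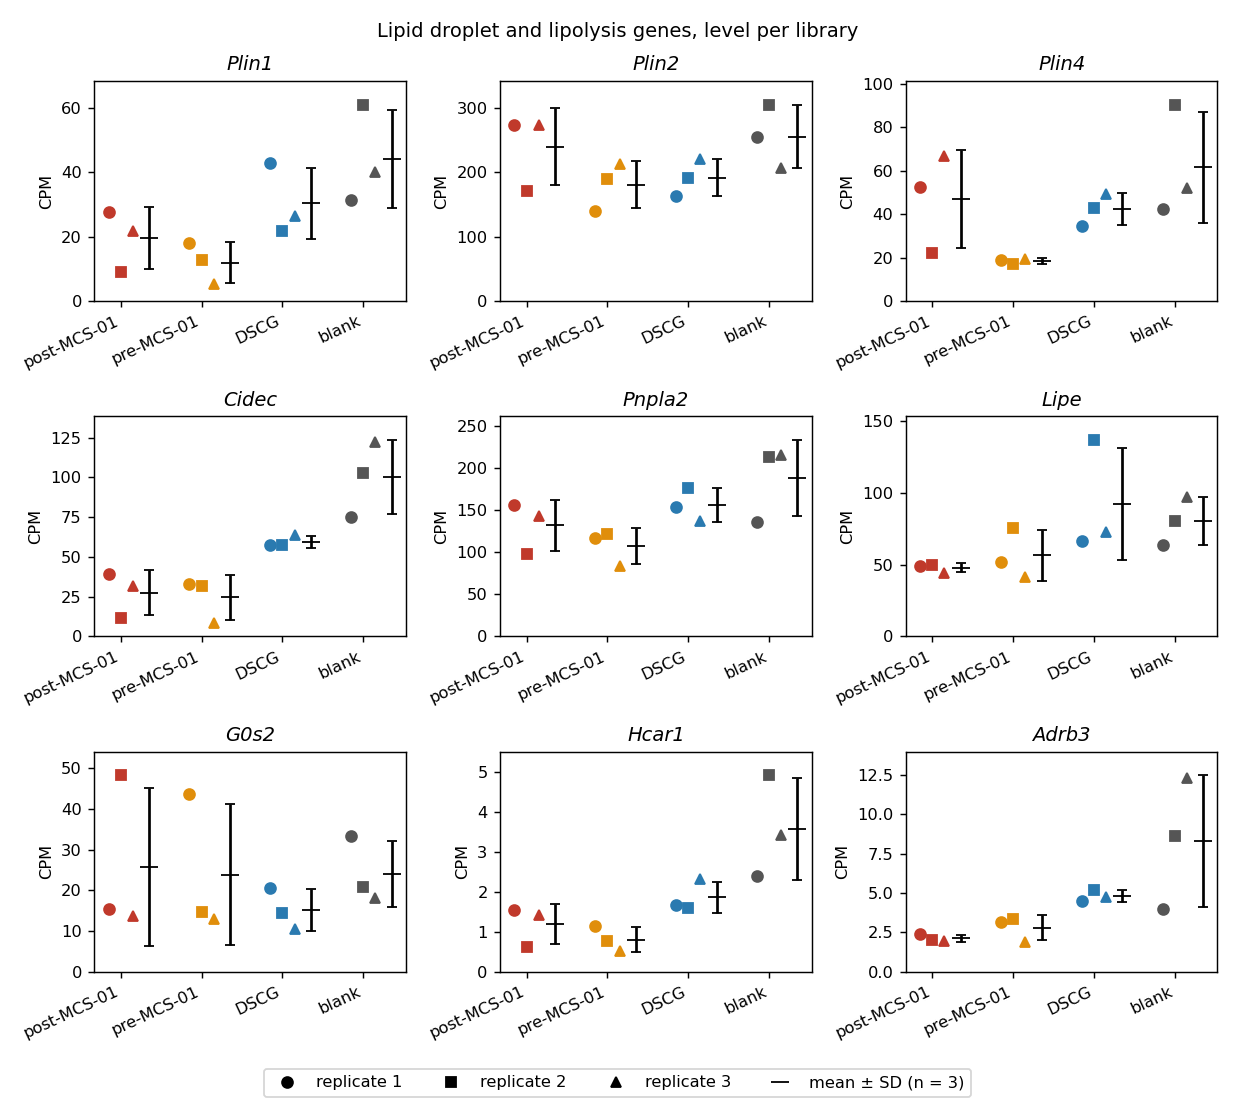
Level of each member in each of the 12 libraries, in CPM on a linear axis from 0, with the group mean ± SD (n = 3) to the right of the points. Cidec and Hcar1 are low in post-MCS-01 and pre-MCS-01 and high in blank. Adrb3 is low in both MCS-01 groups and widely spread in blank (3.96 to 12.3 CPM), where it overlaps DSCG. G0s2 is highest in post-MCS-01 replicate 2 and pre-MCS-01 replicate 1.

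Among the droplet coats, Plin1, which encodes the coat that guards adipocyte droplets from lipases, had 27.8, 9.05 and 21.9 CPM in post-MCS-01, 17.9, 12.6 and 5.22 in pre-MCS-01, 42.8, 21.7 and 26.5 in DSCG, and 31.5, 61.1 and 40.1 in blank. Every post-MCS-01 and pre-MCS-01 library was below every blank library, whereas DSCG overlapped blank. Plin1 was 2.26-fold lower in post-MCS-01 than in blank (log2 fold change -1.18 ± 0.49 SE, edgeR quasi-likelihood test with Benjamini-Hochberg adjustment, adjusted p = 0.471) and 3.72-fold lower in pre-MCS-01 (-1.89 ± 0.51, adjusted p = 0.61). Neither passed the threshold of 0.05 over all genes. The adjusted p values that follow come from this edgeR test unless another tool is named.

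Plin4, a coat of nascent droplets in adipocytes and muscle, had 52.4, 22.2 and 66.6 CPM in post-MCS-01, 18.7, 16.8 and 19.3 in pre-MCS-01, 34.6, 42.9 and 49.4 in DSCG, and 42.2, 90.5 and 52.1 in blank. The pre-MCS-01 libraries lay close together and below the other 9. Its log2 fold change was -1.76 ± 0.38 for pre-MCS-01 against blank (3.38-fold lower, adjusted p = 0.583, edgeR) and 1.37 ± 0.38 for post-MCS-01 against pre-MCS-01 (2.58-fold higher, adjusted p = 0.182). Against blank, post-MCS-01 overlapped it (-0.39, 95% interval -1.2 to 0.42).

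Plin2, the coat found on droplets of most cell types, varied least among the members, 2.18-fold from the lowest to the highest library. It had 274, 170 and 274 CPM in post-MCS-01, 140, 190 and 212 in pre-MCS-01, 163, 191 and 220 in DSCG, and 254, 305 and 207 in blank. Each treatment overlapped blank. The log2 fold change against blank was -0.09 in post-MCS-01 (95% interval -0.64 to 0.45), -0.5 in pre-MCS-01 (-1.05 to 0.05) and -0.42 in DSCG (-0.96 to 0.13).

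Cidec, which encodes the protein that fuses adipocyte droplets into a single large one, varied most, 15-fold over the 12 libraries. It had 39.1, 11.5 and 31.5 CPM in post-MCS-01, 33.2, 31.9 and 8.15 in pre-MCS-01, 57.3, 57.3 and 63.8 in DSCG, and 75.4, 103 and 122 in blank. The blank libraries were above all DSCG libraries, and the DSCG libraries above all 6 MCS-01 libraries. Against blank, Cidec was 3.64-fold lower in post-MCS-01 (log2 -1.87 ± 0.51, adjusted p = 0.209, edgeR), 4.09-fold lower in pre-MCS-01 (-2.03 ± 0.52, adjusted p = 0.61) and 1.68-fold lower in DSCG (-0.75 ± 0.5, adjusted p = 0.9994).

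Of the lipases, Pnpla2 encodes ATGL, which takes the first fatty acid off a triglyceride, and had 156, 98.2 and 143 CPM in post-MCS-01, 117, 122 and 83.5 in pre-MCS-01, 154, 177 and 137 in DSCG, and 136, 213 and 216 in blank. Only the pre-MCS-01 libraries were all below blank (1.75-fold lower, log2 -0.81 ± 0.25, adjusted p = 0.617, edgeR). In post-MCS-01 the difference from blank was -0.51 (95% interval -1.06 to 0.04).

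Lipe encodes HSL, which cuts diglycerides. It had 49.4, 49.7 and 44.3 CPM in post-MCS-01, 51.7, 75.9 and 41.6 in pre-MCS-01, 66.6, 137 and 73 in DSCG, and 63.9, 80.4 and 96.9 in blank. The post-MCS-01 libraries were close together and below every DSCG and blank library, and DSCG replicate 2 stood apart at the top. In post-MCS-01, Lipe was 1.93-fold lower than in DSCG (log2 -0.95 ± 0.3, adjusted p = 0.224, edgeR) and 1.68-fold lower than in blank (-0.75 ± 0.3, adjusted p = 0.459). Without DSCG replicate 2, the DSCG difference from blank changed sign, with 0.2 in all 12 libraries and -0.2 without it. Exons of Lipe overlap 918 bases of 4732471J01Rik on the other strand, and a strand setting is not given in the sources used here. That gene had 2 to 39 reads a library, against 370 to 6240 for Lipe.

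G0s2, which encodes a small protein that binds ATGL and blocks it, had 15.3, 48.2 and 13.7 CPM in post-MCS-01, 43.7, 14.7 and 13 in pre-MCS-01, 20.6, 14.5 and 10.4 in DSCG, and 33.3, 20.7 and 18.1 in blank. Each group overlapped each other one, and 1 library in each MCS-01 group stood far above its partners. The 95% interval of the log2 fold change ran from -1.15 to 1.32 for post-MCS-01 against blank and from -1.26 to 1.21 for pre-MCS-01 against blank.

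Of the receptors, Hcar1 encodes the lactate receptor of adipocytes, which lowers cyclic AMP and damps lipolysis. It had 1.54, 0.624 and 1.42 CPM in post-MCS-01, 1.14, 0.767 and 0.506 in pre-MCS-01, 1.67, 1.6 and 2.31 in DSCG, and 2.39, 4.91 and 3.41 in blank. As with Cidec, the blank libraries were above those of DSCG, and DSCG above the 6 MCS-01 libraries. Hcar1 in pre-MCS-01 was 4.44-fold lower than in blank (log2 -2.15 ± 0.45, adjusted p = 0.583, edgeR), and in post-MCS-01 2.99-fold lower (-1.58 ± 0.44, adjusted p = 0.221). The blank replicate 3 value rests on 13 reads (exact Poisson 95% interval 1.81 to 5.82 CPM, counting error only), and the other 11 libraries had 22 reads or more.

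Adrb3 encodes the beta-3 adrenergic receptor, the catecholamine receptor of rodent adipocytes that starts lipolysis. It had 2.39, 2.02 and 1.97 CPM in post-MCS-01, 3.18, 3.35 and 1.86 in pre-MCS-01, 4.46, 5.19 and 4.76 in DSCG, and 3.96, 8.59 and 12.3 in blank. Both MCS-01 groups were below DSCG and below blank without overlap, and blank itself was widely spread. Adrb3 in post-MCS-01 was 3.78-fold lower than in blank (log2 -1.92 ± 0.39, adjusted p = 0.0787, edgeR). This was the smallest adjusted p of any member in the 6 comparisons. In pre-MCS-01 it was 2.88-fold lower than in blank (-1.53 ± 0.38, adjusted p = 0.61), and in post-MCS-01 2.26-fold lower than in DSCG (-1.17 ± 0.38, adjusted p = 0.225). Exons of Adrb3 overlap 839 bases of Gm45470 on the other strand, and the strand setting is not given. Gm45470 is not in the count tables, so how many of its reads could be counted with Adrb3 is not known.

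In post-MCS-01 against blank, 0 of the 9 members passed an adjusted p of 0.05 by edgeR, where 0% of the 16267 genes tested passed. At an unadjusted p of 0.05, 5 members were lower (Plin1, Cidec, Lipe, Hcar1 and Adrb3), where 5.44% of all genes were lower. Those 5 also had every post-MCS-01 library below every blank library, where 9.45% of all genes did. The count of 5 became 3 without blank replicate 2, blank replicate 3, post-MCS-01 replicate 2 or post-MCS-01 replicate 3. DESeq2 called 3 members at an adjusted p of 0.05, all lower (Cidec, Hcar1 and Adrb3, where 2.5% of genes were called). limma-voom called 0 (0% of genes), and limma-voom with library quality weights called Adrb3 alone (5.08% of genes). The median log2 fold change was -0.75 over the members and -0.01 over all genes tested, and 8 of 9 members were below 0, as were 50.8% of all genes.

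In pre-MCS-01 against blank, 9 of 9 members were below 0 (45.9% of all genes), with a median log2 fold change of -1.53, against 0.04 over all genes. edgeR called 0 at an adjusted p of 0.05 (0% of all genes). It gave 6 members with an unadjusted p under 0.05, all lower (Plin1, Plin4, Cidec, Pnpla2, Hcar1 and Adrb3, against 3.93% of all genes). The same 6 did not overlap blank (5.96% of all genes). DESeq2 called 5 of them (all but Pnpla2, 0.418% of genes), limma-voom called 0 (0% of genes), and limma-voom with library quality weights called 6 (Plin1, Plin2, Plin4, Cidec, Pnpla2 and Hcar1, 15.3% of genes).

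In DSCG against blank, edgeR called 0 members at an adjusted p of 0.05 (0% of all genes), and DESeq2 and both limma-voom fits also called 0. No member had an unadjusted p under 0.05 by edgeR, where 0.492% of genes were lower at that level. Cidec and Hcar1 did not overlap blank, 2 of 9 against 1.77% of all genes. The median was -0.55 over the members and 0 over all genes, and 8 of 9 were below 0 (50.2% of all genes). Without blank replicate 1, 2 members had an unadjusted p under 0.05, with no share of all genes under that setting given here. The 3 comparisons with blank share its libraries, and the members are correlated with each other, so neither the comparisons nor the members are independent.

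**Figure D2:**
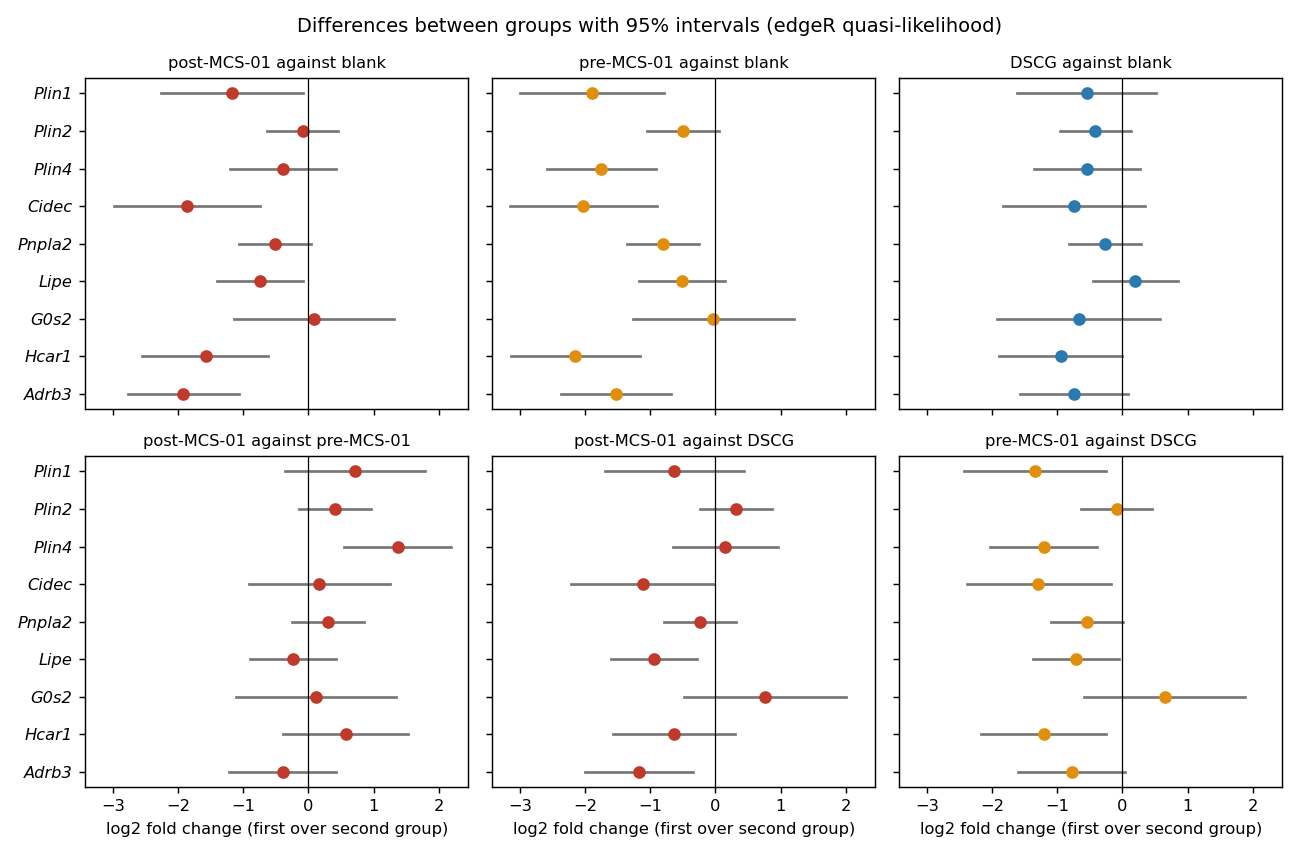
Log2 fold change of each member with its 95% interval from the edgeR model, in the 6 comparisons, the first group named over the second. In the panel of pre-MCS-01 against blank, 6 of 9 intervals lie wholly below 0, and in that of DSCG against blank none does.

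Between the 2 MCS-01 groups, edgeR called 0 members at an adjusted p of 0.05, where 0.824% of genes were called. Plin4 was the only member with an unadjusted p under 0.05 (edgeR, adjusted p = 0.182), higher in post-MCS-01, where 4.2% of genes were higher at that level. It was also the only member without overlap, 1 of 9 against 7.01% of all genes. Without post-MCS-01 replicate 2, 4 members had an unadjusted p under 0.05, with no share of all genes under that setting given here. DESeq2 called Plin4 (adjusted p = 0.0221, 2.63% of genes called) and limma-voom called 0 (0.00615% of genes). With library quality weights, limma-voom called Plin2, Plin4 and G0s2 (23.5% of genes), with G0s2 at -1.17 (adjusted p = 0.0386) against 0.11 in edgeR.

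In post-MCS-01 against DSCG, edgeR called 0 members at an adjusted p of 0.05 (1.06% of genes), as did DESeq2 (3.81% of genes), limma-voom (0.0123%) and limma-voom with quality weights (0%). Cidec, Lipe and Adrb3 had an unadjusted p under 0.05 by edgeR, 3 of 9 lower against 6.72% of all genes, and 1 of 9 without DSCG replicate 2. Cidec, Lipe, Hcar1 and Adrb3 did not overlap, 4 of 9 against 8.28% of all genes. In pre-MCS-01 against DSCG, edgeR, DESeq2 and both limma-voom fits called 0 members (0% of genes by edgeR and 0.105% by DESeq2). There 5 of 9 had an unadjusted p under 0.05 by edgeR (Plin1, Plin4, Cidec, Lipe and Hcar1, lower, against 1.4% of all genes), and 1 of 9 without pre-MCS-01 replicate 3 or without the 3 libraries short of long transcripts. For both comparisons with DSCG, the shares of all genes with libraries left out are not given here. Without overlap were 6 of 9 (2.59% of all genes).

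In the joint test of the 4 groups, edgeR called 0 members (0% of genes) and 7 had an unadjusted p under 0.05, against 8.42% of all genes. Adrb3 had the smallest adjusted p (0.187, edgeR), and Plin2 (adjusted p = 0.813) and G0s2 (adjusted p = 0.924) were the 2 members above 0.05 unadjusted. DESeq2 called 5 members jointly (3.48% of genes), limma-voom 0 (0.00615%) and limma-voom with quality weights 6 (13.5%). Over the 12 libraries, pre-MCS-01 replicate 3 was the lowest in 6 of 9 members. Blank replicate 2 was the highest in 4 members and blank replicate 3 in 3.

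Across the 12 libraries, 18 of the 36 pairs of members were correlated in log2 CPM at a Benjamini-Hochberg adjusted permutation p under 0.05 (100000 resamples, two-sided) for Pearson's r, which ran from -0.43 to 0.94, and 14 for Spearman's rho. The permutations here and with Adipoq shuffled the 12 libraries without regard to group. Differences between group means therefore count towards these p values. The tightest pair was Cidec with Hcar1 (r = 0.94, Spearman's rho = 0.97, adjusted permutation p = 0.00024 for r and 0.00036 for rho). It held without the 2 libraries farthest from the Cidec median (r = 0.91) and for deviations from the group means (r = 0.83). Plin1 with Cidec had r = 0.93 and rho = 0.83 (adjusted permutation p = 0.00024 and 0.00978), 0.8 without the 2 farthest libraries and 0.86 for deviations. Some other pairs that passed for r shrank more for deviations, such as Cidec with Lipe (0.68 to 0.36) and Plin1 with Adrb3 (0.73 to 0.46). Others did not, such as Plin2 with Plin4 (0.76 to 0.76), Pnpla2 with Adrb3 (0.82 to 0.79) and Plin1 with Hcar1 (0.93 to 0.86). The closest partner of Plin4 depended on the measure. By r it was Hcar1 (r = 0.84, rho = 0.66, adjusted permutation p = 0.00382 and 0.0527), and by rho Plin2 (r = 0.76, rho = 0.8, adjusted permutation p = 0.0117 and 0.0135). With the other 8 members, G0s2 had r from -0.43 to -0.04 and rho from -0.34 to 0.19, and no pair passed. Its rho was above 0 with 5 of them. For deviations from the group means, r of G0s2 was -0.8 with Plin2 and -0.67 with Plin4, and from -0.35 to -0.05 with the other members. The r of deviations were not tested.

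The members were also set against Adipoq, whose product is made by adipocytes. Adipoq averaged 17.7 ± 9.62 CPM in post-MCS-01, 16.8 ± 11 in pre-MCS-01, 30.6 ± 5.06 in DSCG and 53.8 ± 18.8 in blank, and its log2 fold change against blank was -1.6 ± 0.58 in post-MCS-01 (adjusted p = 0.38, edgeR), -1.67 ± 0.58 in pre-MCS-01 (adjusted p = 0.658) and -0.81 ± 0.57 in DSCG (adjusted p = 0.999). Cidec followed it most closely, with r = 0.98 and rho = 0.94 (permutation p = 1e-05 for both, the smallest that 100000 resamples can give, adjusted 9e-05 over the 9 members), 0.93 without the 2 farthest libraries and 0.98 for deviations from the group means. Plin1 had r = 0.92 (rho = 0.85, adjusted permutation p = 0.00024 and 0.00198), Hcar1 0.9 (rho = 0.92, adjusted 0.00024 and 0.000225 by permutation) and Pnpla2 0.9 (rho = 0.71, adjusted 0.00027 and 0.0199 by permutation). Adrb3 had r = 0.84 and rho = 0.85, with an adjusted permutation p of 0.00155 and 0.00198. Plin4 (r = 0.63, rho = 0.49, adjusted permutation p = 0.0377 and 0.141) and Lipe (r = 0.63, rho = 0.66, adjusted permutation p = 0.0377 and 0.0337) lay between. For deviations from the group means their r with Adipoq was 0.39 and 0.37. Plin2 (r = 0.28, rho = 0.3, adjusted permutation p = 0.429 and 0.385) and G0s2 (r = -0.12, rho = 0.08, adjusted permutation p = 0.722 and 0.815) did not follow Adipoq at this threshold. In RNA from whole wounds, fewer adipocytes and less of these RNAs per adipocyte cannot be told apart.

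**Figure D3:**
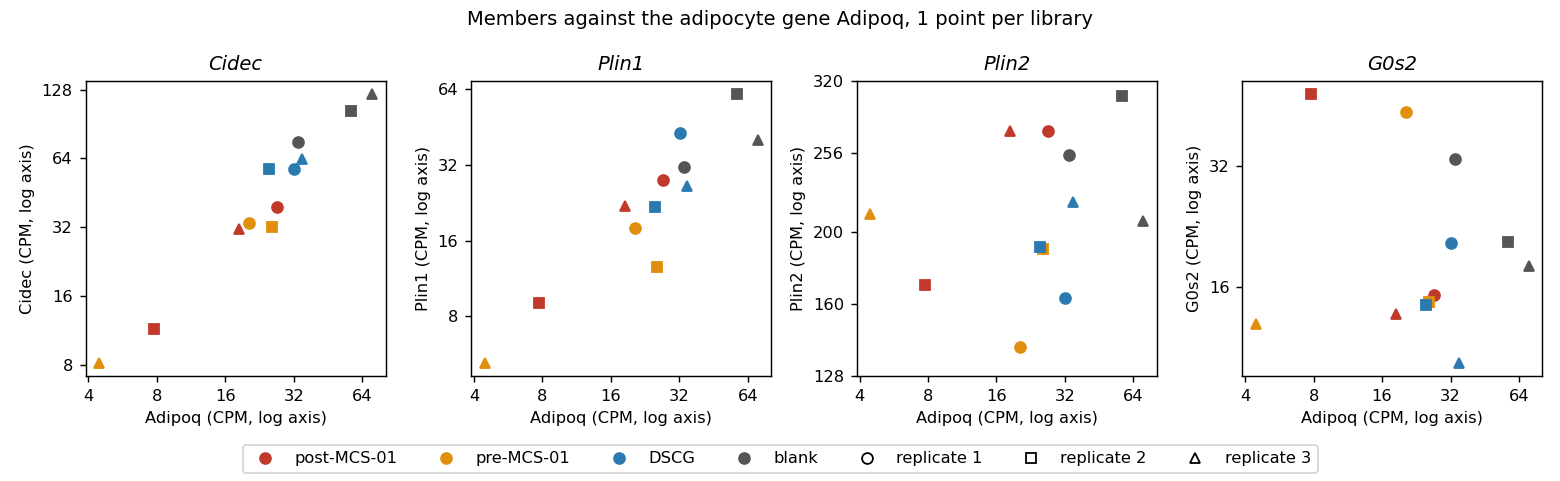
Cidec, Plin1, Plin2 and G0s2 against Adipoq in the 12 libraries, both in CPM on log axes, with colour for the group and shape for the replicate. Cidec and Plin1 follow Adipoq (r = 0.98 and 0.92), and Plin2 and G0s2 scatter (r = 0.28 and -0.12).

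Of 13417 other named genes with a mean of at least 1 CPM, the 6 whose log2 CPM was most like the members' mean (each member standardised over the 12 libraries) were Adhfe1 (r = 0.976), Gstt1 (0.933), Thrsp (0.931), Pik3ip1 (0.92), Cdo1 (0.919) and Adipoq (0.917). For deviations from the group means these r were 0.916, 0.76, 0.884, 0.683, 0.817 and 0.876 in that order of genes. Adhfe1 encodes a mitochondrial dehydrogenase and Thrsp a nuclear protein of fat synthesis. Thrsp averaged 4.87 CPM in post-MCS-01, 4.95 in pre-MCS-01, 12.9 in DSCG and 23.7 in blank, and Adhfe1 2.31, 1.82, 3.38 and 4.65 CPM in the same 4 groups. These genes were ranked on the members' values, so the correlations describe the ranking and carry no p.

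The balance between the general coat Plin2 and the adipocyte coat Plin1 differed between libraries. Per kilobase, Plin2 was 13, 24.8 and 16.6 times Plin1 in post-MCS-01, 10.3, 20 and 53.5 times in pre-MCS-01, 5.06, 11.7 and 11 times in DSCG, and 10.7, 6.61 and 6.81 times in blank. The 3 post-MCS-01 ratios were above all DSCG and blank ratios, and 1 pre-MCS-01 ratio was below the highest of both. The mean log2 ratio was 4.13 ± 0.47 in post-MCS-01, 4.48 ± 1.19 in pre-MCS-01, 3.11 ± 0.67 in DSCG and 2.97 ± 0.39 in blank. It is a description of 2 members and was not tested. Of the summed per-kilobase level of Plin1 to Plin5, Plin2 made up 65.3% ± 2.17 in post-MCS-01, 63.5% ± 7.81 in pre-MCS-01, 59.8% ± 7.49 in DSCG and 60.9% ± 5.77 in blank. Plin1 made up 3.88% ± 1.3, 3.3% ± 2, 7.15% ± 2.58 and 7.84% ± 1.56 in those 4 groups. The ratio of the ATGL inhibitor G0s2 to Pnpla2 spread widely within groups, at a log2 of -0.79 ± 1.35 in post-MCS-01, -0.59 ± 0.86 in pre-MCS-01, -1.62 ± 0.44 in DSCG and -1.19 ± 0.84 in blank. G0s2 exceeded Pnpla2 per kilobase in 2 libraries, post-MCS-01 replicate 2 and pre-MCS-01 replicate 1.

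**Figure D4:**
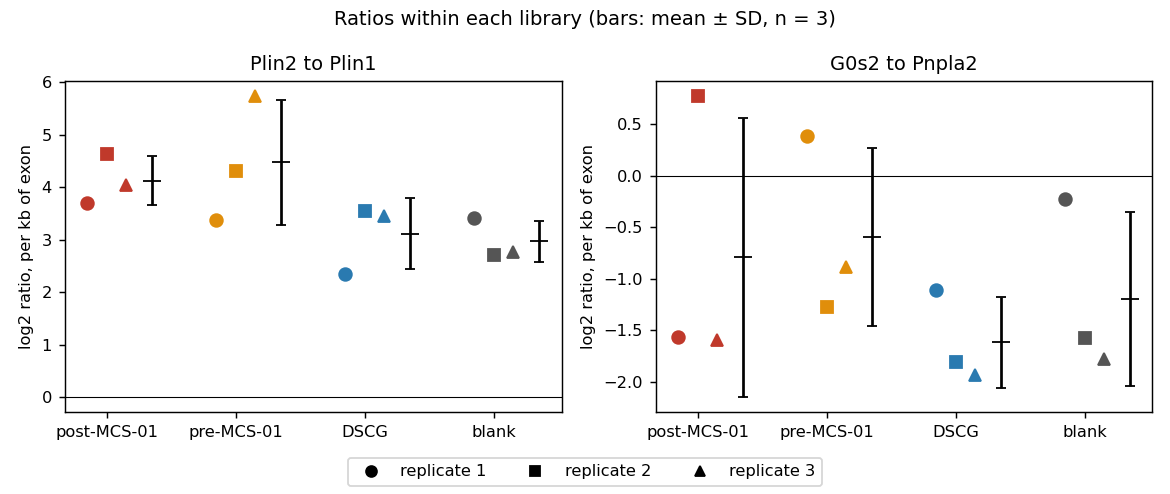
Log2 ratio per kilobase of exon of Plin2 to Plin1 and of G0s2 to Pnpla2 in each library, with group means ± SD (n = 3). Plin2 to Plin1 is highest in pre-MCS-01 replicate 3 (5.74), and G0s2 to Pnpla2 is above 0 in 2 libraries, 1 of each MCS-01 group.

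The wider pathway was described with 4 further lists, none of them containing a member. At an unadjusted p under 0.05 by edgeR, 3.91% of all genes were higher and 5.44% lower in post-MCS-01 against blank, and 3.31% higher and 3.93% lower in pre-MCS-01 against blank, and the counts of these lists stand beside those shares. Of 16 other lipid droplet proteins, 14 were tested and edgeR called 0 in each of the 6 comparisons. Against blank, 1 of 14 was higher and 0 lower at an unadjusted p under 0.05 in post-MCS-01, near the share of all genes, and 1 of 14 was higher and 3 lower in pre-MCS-01. The one higher in both was Hilpda, a hypoxia-induced droplet protein that inhibits ATGL, with 30.6 ± 10.9 CPM in post-MCS-01, 27.7 ± 2.62 in pre-MCS-01, 17.6 ± 1.69 in DSCG and 18.1 ± 3.59 in blank (adjusted p = 0.337 for post-MCS-01 and 0.673 for pre-MCS-01 against blank, edgeR). Aifm2 and Hsd17b11, 2 enzymes found on droplets, were at 11.1 ± 1.2 and 18.9 ± 0.389 CPM in pre-MCS-01, against 18.9 ± 3.38 and 32.5 ± 0.606 in blank (adjusted p = 0.61 for both, edgeR), and DESeq2 called Aifm2. Mettl7b, a protein of the endoplasmic reticulum and droplets, had 0.44 ± 0.0693 CPM in pre-MCS-01, against 1.29 ± 0.0614 in blank, where replicate 3 rests on 5 reads (adjusted p = 0.671, edgeR). Plin3, a cytosolic protein that moves onto droplets in many cells, had 85.7 ± 1.15 CPM in post-MCS-01, 86.9 ± 8.36 in pre-MCS-01, 84.3 ± 20.5 in DSCG and 97.8 ± 14.5 in blank. Plin5, the coat of oxidative tissues, had 1.55 ± 0.543, 0.738 ± 0.217, 0.964 ± 0.457 and 1.19 ± 0.608 CPM in those 4 groups.

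Of 12 other lipases and cofactors, edgeR called 0 in any comparison. At an unadjusted p under 0.05, post-MCS-01 had 2 of them lower and 0 higher against blank, and pre-MCS-01 had 3 lower and 1 higher. Lpl, the lipase that releases fatty acids from lipoproteins at the capillary wall, had 123 ± 65.6 CPM in post-MCS-01, 92.6 ± 23 in pre-MCS-01, 241 ± 104 in DSCG and 248 ± 30.1 in blank (adjusted p = 0.471 and 0.61 for the MCS-01 groups against blank, edgeR). Ces1d, a triglyceride hydrolase of adipocytes and liver, had 11.9 ± 6.51, 5.53 ± 1.18, 11 ± 5.9 and 21.3 ± 10 CPM in the same order of groups, and DESeq2 called it lower in pre-MCS-01 than in blank. Pnpla3, of the same family as ATGL, had 8.73 ± 3.04, 11.9 ± 2.38, 15.4 ± 4.95 and 20.6 ± 10.6 CPM (adjusted p = 0.31 and 0.703 for the MCS-01 groups against blank, edgeR), and the carboxylesterase Ces1f 1.34 ± 0.554, 0.717 ± 0.431, 1.04 ± 0.335 and 2.13 ± 0.888 CPM (adjusted p = 0.831 and 0.669). Abhd5, the co-activator of ATGL, had its highest mean in pre-MCS-01, with 106 ± 29.2 CPM in post-MCS-01, 120 ± 15.1 in pre-MCS-01, 88.8 ± 22.3 in DSCG and 81.1 ± 18.5 in blank, without overlap between pre-MCS-01 and blank (adjusted p = 0.688, edgeR). Mgll, which finishes lipolysis by cutting monoglycerides, overlapped blank in each treatment.

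Of 26 genes of lipolysis signalling, edgeR again called 0, and at an unadjusted p under 0.05, post-MCS-01 had 3 lower against blank and pre-MCS-01 had 5, with 0 higher in either. Npr1, the natriuretic peptide receptor that starts lipolysis through cyclic GMP in human adipocytes, had 18.3 ± 4.17 CPM in post-MCS-01, 13.2 ± 2.54 in pre-MCS-01, 25.3 ± 4.11 in DSCG and 27.9 ± 3.85 in blank. Its log2 fold change in pre-MCS-01 against blank was -1.07 ± 0.23 (adjusted p = 0.583, edgeR), and DESeq2 called it. Aqp7, the channel by which glycerol leaves adipocytes, had 1.14 ± 0.543, 0.899 ± 0.435, 2.68 ± 1.18 and 2.83 ± 0.589 CPM in those groups. Adora1, the adenosine receptor that damps lipolysis, and Adrb1, the beta-1 adrenergic receptor, were lowest in pre-MCS-01, at 1.21 ± 0.184 and 0.372 ± 0.274 CPM, against 3.11 ± 1.57 and 1.3 ± 0.64 in blank (adjusted p = 0.61 and 0.617, edgeR).

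Of 19 genes of triglyceride synthesis and fatty acid handling, 17 were tested and edgeR called 0, with 2 higher and 3 lower at an unadjusted p under 0.05 in post-MCS-01 against blank, and 1 higher and 5 lower in pre-MCS-01. The smallest joint p of this list was that of Mogat1, a monoacylglycerol acyltransferase with few reads, which had 6, 1 and 0 reads in post-MCS-01, 3, 5 and 3 in pre-MCS-01, 7, 15 and 8 in DSCG, and 12, 24 and 3 in blank, the last in the shallow library (adjusted p = 0.264 and 0.669 for the MCS-01 groups against blank, edgeR). Pck1, which supplies glycerol phosphate for re-esterification in fat cells, had 9.04 ± 8.81 CPM in post-MCS-01, 6.77 ± 6.07 in pre-MCS-01, 21.2 ± 6.54 in DSCG and 33.4 ± 16.4 in blank (adjusted p = 0.471 and 0.658 for the MCS-01 groups against blank, edgeR). Cd36, a fatty acid transporter, had 58.6 ± 30.3, 31.1 ± 4, 58.7 ± 21.9 and 83.1 ± 16.7 CPM. Lpin2, a phosphatidate phosphatase, stood at 40 ± 16.6 CPM in post-MCS-01 and 33.9 ± 10.2 in pre-MCS-01, against 21.2 ± 2.64 in blank (adjusted p = 0.389 and 0.703, edgeR). In the order in which the lists are described, their median log2 fold changes against blank were -0.13, -0.16, -0.09 and -0.05 for post-MCS-01, where the members' median was -0.75. For pre-MCS-01 the lists' medians were -0.37, -0.42, -0.41 and -0.44, where the members' median was -1.53. limma-voom called 0 genes of the 4 lists in each comparison. In post-MCS-01 against blank, limma-voom with quality weights (5.08% of all genes called) called 0 higher in each list and 0, 1, 1 and 0 lower. In pre-MCS-01 against blank, where it called 15.3% of all genes, it called 0 higher and 4 lower of 14 droplet proteins, 1 higher and 4 lower of 12 lipases, 1 higher and 10 lower of 26 signalling genes, and 1 higher and 2 lower of 17 synthesis genes. Between the MCS-01 groups, for post-MCS-01 against pre-MCS-01, that fit called 5 higher and 0 lower, 3 higher and 4 lower, 8 higher and 0 lower, and 4 higher and 1 lower in the same order of lists, where it called 23.5% of all genes.

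The levels of cell type markers are set beside the members. The 13 adipocyte markers, of which none was at 0 in any group, summed to 1170 to 1950 CPM in post-MCS-01, 1090 to 1790 in pre-MCS-01, 1910 to 2370 in DSCG and 1790 to 3030 in blank. Their median log2 fold change was -1.04 in post-MCS-01 against blank and -1.42 in pre-MCS-01 against blank. edgeR called 0 of 13 in both, with 4 and 9 lower at an unadjusted p under 0.05 (5.44% and 3.93% of all genes). DESeq2 called 1 and 2 lower (2.5% and 0.418% of all genes called), limma-voom 0 and 0, and limma-voom with quality weights 1 and 6 lower (5.08% and 15.3%). The lowest blank sum lay within the post-MCS-01 range and at the top of the pre-MCS-01 range. The 9 neutrophil markers summed to 4680 to 10500 CPM in post-MCS-01, 4130 to 6550 in pre-MCS-01, 45.1 to 3770 in DSCG and 583 to 941 in blank. The 15 hair follicle markers summed to 121 to 137 CPM in post-MCS-01, 13200 to 32600 in pre-MCS-01, 2120 to 41900 in DSCG and 6990 to 20700 in blank. Of these 15, edgeR called 11 lower against pre-MCS-01 and 13 lower against DSCG for post-MCS-01 wounds (0.824% and 1.06% of all genes called). Against blank it called 0 (0%). DESeq2 called 14 lower against each of pre-MCS-01, DSCG and blank (2.63%, 3.81% and 2.5% of all genes). In the same order, limma-voom called 1, 1 and 0 lower (0.00615%, 0.0123% and 0%). With quality weights it called 15, 0 and 14 lower (23.5%, 0% and 5.08%). Macrophages and sebaceous glands also carry lipid droplets. The 11 macrophage markers summed to 1790 to 3050 CPM in post-MCS-01, 1320 to 1640 in pre-MCS-01, 1170 to 2490 in DSCG and 1990 to 2050 in blank, and the 12 sebaceous markers to 963 to 3870, 2260 to 2970, 1490 to 2630 and 3060 to 5680 CPM. The 9 fibroblast and adipocyte progenitor markers summed to 572 to 1200, 475 to 832, 762 to 1200 and 942 to 1420 CPM, and the 12 muscle markers to 5010 to 10900, 3510 to 5290, 4250 to 7670 and 3520 to 9710 CPM. The part of these cells in the members' differences was not tested.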

How the data were processed

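RNA from back-skin wounds of 12 mice, 1 library each, was measured. Each deposited table gives unnormalised counts of reads by gene symbol, which the authors made with FastQC, TopHat2, Bowtie2 and HTSeq on mm10, per the submitters' processing notes, where limma is also named. Versions, strand setting and annotation are not given in the sources used here. The 5 summary lines of the counting tool were left out. Among them, reads not uniquely aligned came to 17.2% to 23.4% and reads in no gene to 4.34% to 6.81% of each library's total.

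Counts were analysed in R 4.3.3. filterByExpr kept 16267 genes, and TMM factors ran from 0.905 to 1.07. edgeR 4.0.16 (glmQLFit, glmQLFTest, two-sided) was fitted to all 12 libraries with 1 mean per group and Benjamini-Hochberg adjustment over the same genes. Intervals of 95% used the model's 11.5 degrees of freedom. The fit's biological coefficient of variation came to 0.347. For groups of 3 libraries, an exact permutation test cannot go below 0.1. Alternatives used RLE and total-count scaling, no filter, DESeq2 1.42.0, limma 3.58.1 (voom, with and without library quality weights), the 2 groups alone, an exon-length covariate, and fewer libraries. Log2 CPM used a prior count of 2, and ratios 0.5. The steps were tested on simulated data.

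Groups follow the treatment label. Replicate numbers follow record order and pair nothing. Replicates are separate mice, and no 2 libraries of a group agreed within counting noise. Exon lengths are from GENCODE M21 (GRCm38), matched by symbol for 94.5% of genes.

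The members and lists were chosen with earlier results of these data known. Besides the members, the text names the 6 genes most correlated with the members' mean, up to 4 genes per pathway list with the smallest joint p, and fixed defining genes.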

Additional observations from a re-analysis of the deposited data

How the results depend on the processing

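No paired analysis was possible because the labels give each mouse a different number and no pairing. Leaving out each library in turn kept the direction of 304 of 324 member fold changes. The 9 other settings kept 455 of 486 in direction and side of the threshold. In these, 18 more passed the threshold in the same direction, and 13 changed sign. Members called numbered 0 in edgeR under each scaling, filter, covariate and set of libraries tried. DESeq2 called 3 in post-MCS-01 against blank, 5 in pre-MCS-01 against blank, 1 in post-MCS-01 against pre-MCS-01 and 5 jointly, and limma-voom with quality weights called 1, 3 and 6 in post-MCS-01 against blank, post-MCS-01 against pre-MCS-01 and pre-MCS-01 against blank, and 6 jointly. The cause was not tested. Members with an unadjusted p under 0.05 in DSCG against blank numbered 1 with no filter, 1 with DESeq2, 1 with the exon-length covariate and 2 with the 2 groups alone. In post-MCS-01 against pre-MCS-01 they numbered 4 with quality weights and 2 with the covariate, and in pre-MCS-01 against DSCG 2 with quality weights. Without the 3 libraries short of long transcripts they numbered 1 in pre-MCS-01 against DSCG and 4 jointly. Without 1 library they ranged from 3 to 6 in post-MCS-01 against blank, 0 to 2 in DSCG against blank, 1 to 4 in post-MCS-01 against pre-MCS-01, 1 to 3 in post-MCS-01 against DSCG, and 1 to 6 in pre-MCS-01 against DSCG. In post-MCS-01 against blank, 1521 of all genes (9.35%, either direction) had an unadjusted p under 0.05 with all 12 libraries. Fewer genes did in each fit without 1 library, where 3 to 6 of the 9 members did. The counts at an unadjusted p for the other comparisons in this paragraph have no share of all genes under the same setting beside them. Those counts do not show whether members passed more often than other genes. At an adjusted p of 0.05, the share of all genes called in post-MCS-01 against pre-MCS-01 was 0.824% by edgeR and 23.5% with quality weights. In pre-MCS-01 against DSCG it was 0% by both.

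The sign changed in the following log2 fold changes. G0s2 in post-MCS-01 against blank was -0.2 by limma-voom, -0.69 with quality weights, -0.07 without the 3 libraries and -0.07 with the covariate. In pre-MCS-01 against blank it was 0.48 with quality weights, 0.06 without the 3 libraries and 0.1 with the covariate, and in post-MCS-01 against pre-MCS-01 -1.17, -0.13 and -0.16. Lipe was -0.04 in DSCG against blank and 0.05 in post-MCS-01 against pre-MCS-01 without the 3 libraries, and 0.18 in the second with the covariate. Without 1 library, G0s2 ranged from -0.72 to 0.39 in post-MCS-01 against blank, -0.81 to 0.25 in pre-MCS-01 against blank, -0.66 to 0.9 in post-MCS-01 against pre-MCS-01, -0.05 to 1.05 in post-MCS-01 against DSCG and -0.13 to 0.93 in pre-MCS-01 against DSCG. Plin2 ranged from -0.22 to 0.13 in post-MCS-01 against blank and -0.25 to 0.07 in pre-MCS-01 against DSCG, and Plin4 from -0.72 to 0.02 in post-MCS-01 against blank and -0.17 to 0.53 in post-MCS-01 against DSCG. Lipe ranged from -0.2 to 0.39 in DSCG against blank, and from -0.37 to 0.03 in post-MCS-01 against pre-MCS-01, where Cidec ranged from -0.19 to 0.6. The Plin2 to Plin1 ratio moved by less than the spread between replicates with a prior count of 5. Depth limits blank replicate 3, where Hcar1 had 13 reads and Adrb3 47.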
